A study of Mus musculus with 6 samples.

Results

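The genes described here are 48 genes of mitosis, among them the cyclins and kinases of mitotic entry, the spindle checkpoint, the kinetochore, the spindle motors and the machinery of anaphase and cytokinesis. They were chosen by name as genes with a known role in mitosis, with earlier results of these data known. Each was found by its gene identifier among the 21959 genes whose values passed the quality status of the deposited table in both conditions. All 48 had an FPKM of 5 or more as the mean of both conditions, as did 9341 of the 21959 genes, which are called expressed genes below, so none of the 48 was lost to a filter on low values.

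RNA-seq was performed on primary colon epithelial cells grown from tumors of mice in which Cre removes a floxed part of Apc. PID- cells came from CDX2P-NLS-Cre;APCΔ/+ mice without a further transgene. PID+ cells came from littermates that also carried ROSA26-PID, in which Cre switches on a GST fusion of the Pak inhibitor domain (PID), a peptide that binds and blocks the Group I Paks, kinases downstream of Rac and Cdc42. The mice were kept to 8 months of age. Cre is under the Cdx2 promoter, so recombination takes place in gut epithelium, mostly in the large bowel and the far end of the small bowel. The labels name 3 PID+ samples, from mice 4, 7 and 26, whose treatment field gives the PID allele at Rosa26, and 3 PID- samples, from mice 1, 2 and 3, whose treatment field says untreated, with tumor induction as the protocol for all. They call the PID- samples normal, although the study describes them as tumor cells, and the study uses other numbers for its PID- cells. The rows of the table named treated were taken as PID+ and those named untreated as PID-. The transgene has no row of its own that could serve to check this.

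The authors merged the 3 sets of reads of a condition before they calculated FPKM, fragment counts divided by transcript length and by the size of the library. Each gene therefore has 1 pooled FPKM per condition, with the confidence interval that CuffDiff gave it, and values of single samples are not used here. Differences between PID+ and PID- cells are without a replicate check, and no p-value was calculated. The study's methods speak of sequencing runs where the labels name mice, so the spread between animals is not known. Changes are given as log2((FPKM in PID+ + 1)/(FPKM in PID- + 1)), in which the added 1 makes the change of weakly expressed genes look smaller. The intervals reached from the FPKM to either side by a median of 66.3% of its value in PID+ cells and 73.6% in PID- cells for the members, compared with 79.8% and 78.5% for all expressed genes.

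At the onset of mitosis, Cdk1 bound to B-type cyclins drives chromosome condensation and spindle assembly. Microtubules of the spindle attach to the kinetochore, a protein assembly built on the centromere, and the spindle checkpoint holds back the anaphase-promoting complex until each chromosome is attached from both poles. Many of the genes for this machinery are transcribed late in the cell cycle, and in the intestine they are active in the dividing cells of the crypts and in tumors that start from loss of Apc.

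FPKM was higher in PID+ than in PID- cells for 47 of the 48 mitotic genes and lower for 1, Pttg1. Among all 21959 genes 41.0% were higher and 39.7% lower in PID+ cells, and among expressed genes these shares were 49.9% and 50.1%. The median log2 change of the mitotic genes was 0.90, compared with 0 over all genes and -0.0012 over expressed genes. Their summed FPKM was 2770.0 in PID+ cells against 1455 in PID- cells, a ratio of 1.90.

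Folds were counted with 1 added to each FPKM, so a gene whose FPKM ratio is just past a fold can fall short of it. At least 1.5-fold higher in PID+ cells were 40 of the 48 genes, compared with 8.18% of all genes and 13.0% of expressed genes. At least 2-fold higher were 17 of them, compared with 3.31% and 5.01%. None was 3-fold higher, a change that 1.04% of all genes and 1.54% of expressed genes reached. None was at least 1.5-fold lower, compared with 8.84% and 13.4%, and thus none 2-fold lower (3.77% and 5.20%) or 3-fold lower (1.72% and 2.37%). Differences in the share of dividing cells and in the amount of these mRNAs per dividing cell cannot be told apart in bulk RNA.

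Against the error given with the table, no single gene stood apart. The deposited intervals of PID+ and PID- cells overlapped in all 48 genes. Intervals lay apart in 0.729% of all genes and in 1.35% of expressed genes, and they did so with the higher value in PID+ cells in 0.187% and 0.375%. A milder measure was chosen after the data were seen. By it, the FPKM of PID+ cells lay above the upper bound of PID- cells for 34 of the 48 genes. The same held for 10.7% of all genes and 7.15% of expressed genes. The count of 34 depended on the scale. It was 27 with equal total FPKM, 35 with equal upper quartiles and 1 (Kif20b) with equal Gapdh, compared with 9.718%, 10.79% and 6.763% of all genes and 5.674%, 7.333% and 1.906% of expressed genes. On these scales, too, the intervals overlapped in all 48 genes, while they lay apart with the higher value in PID+ cells in 0.1412%, 0.1913% and 0.06831% of all genes and 0.2783%, 0.3854% and 0.1178% of expressed genes.

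The size of the shift depended on the scale on which the conditions were compared. Gapdh, a gene of glycolysis often used as a reference, had an FPKM of 2570.3 (deposited interval 650.2 to 4490.4) in PID+ cells against 1666 (511 to 2822) in PID- cells, and Actb, which encodes a cytoplasmic actin, had 1909 and 1433. When FPKM was scaled to equal Gapdh, the median log2 change of expressed genes moved to -0.58 and that of all genes to -0.08. The median of the mitotic genes was then 0.29, with 39 genes higher and 9 lower in PID+ cells (Anln, Bub3, Ccnb2, Cdc20, Cdca8, Cenpk, Nusap1, Pttg1 and Spc24), 9 at least 1.5-fold higher and none 2-fold higher. On that scale, 19.17% of all genes and 12.85% of expressed genes were higher and 61.56% and 87.14% lower. At least 1.5-fold higher were 2.732% and 3.597%, and at least 2-fold higher 1.179% and 1.574%. Pttg1 alone was at least 1.5-fold lower, compared with 26.47% and 49.91%. This scaling multiplies every FPKM of PID+ cells by 0.648, so it lowers the mitotic genes together with all others. Under the other scalings, equal total FPKM and equal upper quartiles, Pttg1 was the only one of the 48 genes that was lower, compared with 44.28% and 39.29% of all genes and 58.42% and 49.29% of expressed genes.

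Markers of other cell types were measured beside these genes. The 10 epithelial markers summed to an FPKM of 9083 in PID+ cells against 4965 in PID- cells, with the keratin Krt19 the most abundant by the mean of both. Of these 10, 8 were higher in PID+ cells, though Krt19 itself turned lower when Gapdh was set equal (log2 change 0.25, then -0.37). Cdx2, the factor whose promoter drives Cre, was lower at 0.542 compared with 8.04, Vil1 was below 1 in both conditions and Cdx1 was listed at 0 in both. Epcam, a surface marker of epithelium, was at 401 and 124. General epithelial markers were thus abundant in both conditions, and so was Krt20, a keratin of intestinal epithelium, at 158 and 73.5, while Vil1 and Cdx1 were at or near 0.

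The 8 fibroblast markers summed to 3.005 in PID+ cells against 34.1 in PID- cells, with Col1a1 the most abundant by the same mean. They were lower in PID+ cells for 7 genes, and Lum was listed at 0 in both. The 7 immune markers summed to 22.1 and 17.2, almost all of it Cd68, with Cd3e at 0 in both and 6 of the 7 below 1 in both. The 4 endothelial markers summed to 3.66 and 1.12, most of it Kdr. Between the conditions the fibroblast sum was thus lower in PID+ cells and the other 3 sums were higher, of which the endothelial sum was small and the immune sum turned lower with Gapdh set equal (14.3 against 17.2). Their part in the difference was not tested.

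**Figure D1:**
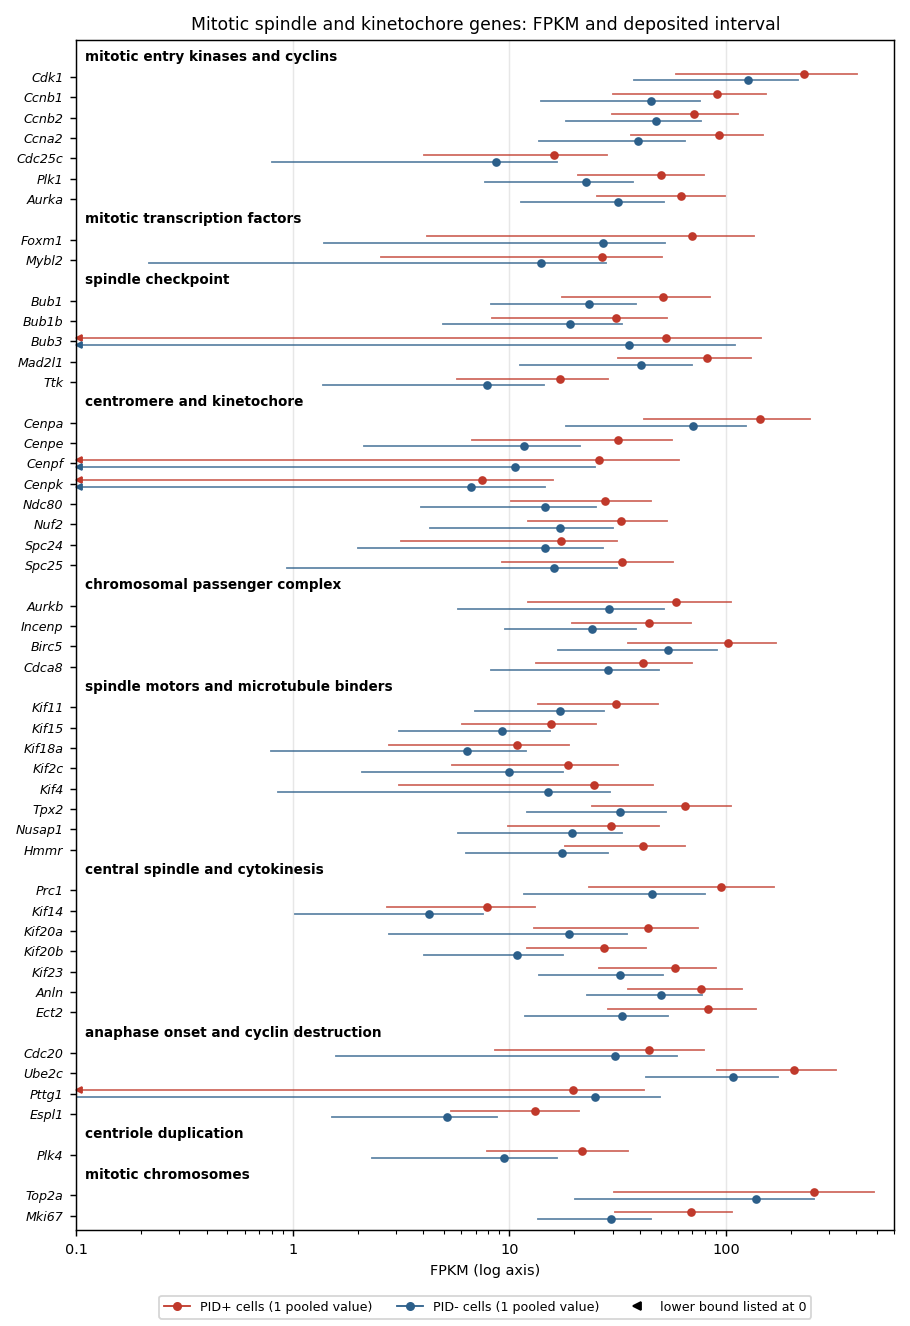
FPKM of the 48 mitotic genes on a log axis, ordered by role, with PID+ cells in red and PID- cells in blue. Each point is the pooled value of a condition and each line its deposited confidence interval, with an arrowhead where the lower bound was listed at 0. The red point lies to the right of the blue point for 47 genes and to the left for Pttg1, while with Gapdh set equal 9 would lie to the left, and the lines overlap in all 48.

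The kinases and cyclins of mitotic entry were all 7 higher in PID+ cells, at a median log2 change of 0.95. Cdk1 (ENSMUSG00000019942.9, chromosome 10 of GRCm38 from 69335146 to 69352938), the kinase at the center of entry, was the most abundant of them. Its FPKM was 231 (deposited interval 58.7 to 403) in PID+ cells against 127 (37.8 to 216) in PID- cells, with a log2 change of 0.86. Ccna2, which encodes cyclin A2 of S and G2 phase, had 92.6 (36.4 to 149) and 39.4 (13.7 to 65.0), the largest change of the group at 1.21. The B-type cyclins differed from each other. Ccnb1 had an FPKM of 91.2 in PID+ cells against 45.2 in PID- cells, with a log2 change of 0.998. Ccnb2 had 71.6 (29.8 to 113) and 47.6 (18.3 to 76.9), a log2 change of 0.58 that turned to -0.04 when Gapdh was set equal.

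The enzymes that act on Cdk1 and the spindle poles moved in the same direction as Cdk1. Plk1, a kinase needed from entry to cytokinesis, had an FPKM of 50.1 in PID+ cells against 22.5 in PID- cells, and its log2 change was 1.12. Aurka, the Aurora kinase of spindle poles, had 62.2 and 31.7, a log2 change of 0.95. Cdc25c, a phosphatase that removes inhibitory phosphates from Cdk1, was the scarcest of the group at 16.2 and 8.73, a log2 change of 0.82.

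Of the transcription factors that act on mitotic genes, both were higher in PID+ cells. Foxm1 (ENSMUSG00000001517.11, chromosome 6 from 128362967 to 128376146), a forkhead factor of G2 phase, had the second largest change of all 48 genes, a rank it lost with chromosome medians subtracted. Its FPKM was 69.5 (4.16 to 135) in PID+ cells against 27.0 (1.39 to 52.5) in PID- cells, with a log2 change of 1.33. Its intervals are wide, with lower bounds near 0 in both conditions, so the size of its change is poorly fixed. Mybl2, which encodes B-Myb, a partner of the MuvB complex, had 26.7 (2.56 to 50.9) and 14.0 (0.216 to 27.9), a log2 change of 0.88.

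The 5 spindle checkpoint genes were all higher in PID+ cells, at a median log2 change of 0.99. Bub1, a kinase that recruits other checkpoint proteins to kinetochores, had an FPKM of 51.1 (17.5 to 84.7) in PID+ cells against 23.3 (8.20 to 38.3) in PID- cells, with a log2 change of 1.10. Mad2l1, the Mad2 protein that captures Cdc20, was the most abundant with 81.6 (31.9 to 131) and 40.7 (11.3 to 70.1), a log2 change of 0.99. Ttk, the kinase Mps1 that starts checkpoint signaling, had 17.1 and 7.91, a log2 change of 1.02. The 2 remaining genes, which bind each other in the inhibitor of the anaphase-promoting complex, changed less. Bub1b, which encodes BubR1, had 31.0 and 19.1, a log2 change of 0.67. Bub3 had 53.02 (0 to 145) and 35.6 (0 to 110.1), a log2 change of 0.56 that was -0.05 with Gapdh set equal, and with intervals that reach 0 it carries little information.

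Among the 8 genes of centromere and kinetochore the median log2 change was 0.94, with a spread from 0.14 to 1.37. Cenpe (ENSMUSG00000045328.8, chromosome 3 from 135212537 to 135273611), a motor that carries chromosomes to the spindle equator, had the largest change of all 48 genes unless chromosome medians were subtracted. Its FPKM was 31.7 (6.73 to 56.7) in PID+ cells against 11.6 (2.13 to 21.1) in PID- cells, with a log2 change of 1.37 and a ratio of 2.72. Cenpa, the histone H3 variant that marks centromeres, was the most abundant with 143 (41.7 to 244) and 70.8 (18.3 to 123), a log2 change of 1.004. Cenpf, a protein of the outer kinetochore, had 26.1 (0 to 60.7) and 10.6 (0 to 24.9), a log2 change of 1.23. Both of its intervals reach 0, so the size of its change is poorly fixed. Cenpk (ENSMUSG00000021714.11, chromosome 13 from 104228611 to 104252392), part of the network that stays on the centromere throughout the cell cycle, had the smallest positive change of the list. Its FPKM was 7.47 (0 to 16.0) and 6.67 (0 to 14.6), a log2 change of 0.14 that turned to -0.39 with Gapdh set equal.

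The 4 subunits of the Ndc80 complex, which binds microtubules at the kinetochore in equal numbers of each subunit, did not change by equal amounts. Ndc80 had an FPKM of 27.6 in PID+ cells against 14.5 in PID- cells, Nuf2 32.9 and 17.2, and Spc25 33.0 and 16.1, with log2 changes of 0.88, 0.90 and 0.99. Spc24 had 17.3 (3.15 to 31.5) and 14.6 (2.01 to 27.2), a log2 change of 0.23 that was -0.35 with Gapdh set equal. In PID- cells all 4 subunits thus lay close to each other, and in PID+ cells Spc24 lay below the others, although its intervals overlapped with theirs in both conditions.

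In the chromosomal passenger complex, which corrects faulty attachments and moves to the midzone at anaphase, the 4 genes had a median log2 change of 0.88. Its kinase Aurkb had an FPKM of 58.7 (12.2 to 105) in PID+ cells against 28.8 (5.80 to 51.7) in PID- cells, with a log2 change of 1.004. The others of the complex were also higher. Birc5, which encodes survivin, was the most abundant with 103 (35.3 to 170.2) and 54.1 (16.8 to 91.3), a log2 change of 0.91. Incenp, the scaffold that activates the kinase, had 44.3 and 24.1, a log2 change of 0.85. Cdca8, which encodes borealin, changed least of the 4. It had 41.5 (13.3 to 69.6) and 28.7 (8.27 to 49.1), a log2 change of 0.52 that was -0.09 with Gapdh set equal.

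The 8 spindle motors and microtubule binders had a median log2 change of 0.76. Hmmr, a microtubule-bound protein of the spindle pole, had the largest change, with an FPKM of 41.4 (18.1 to 64.7) in PID+ cells against 17.4 (6.34 to 28.5) in PID- cells and a log2 change of 1.20. Tpx2, which activates Aurka on the spindle, was the most abundant with 64.8 (24.1 to 105) and 32.4 (12.0 to 52.7), a log2 change of 0.98. Kif11, the motor Eg5 that pushes spindle poles apart, had 31.2 and 17.2, and its log2 change was 0.82. Kif2c, which takes microtubules apart at centromeres, had 18.6 and 9.93 with a change of 0.84, and Kif15, which can share the work of Kif11, had 15.6 and 9.26 with a change of 0.69.

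Kif18a, a motor that dampens chromosome movement, had an FPKM of 10.8 in PID+ cells against 6.37 in PID- cells, with a log2 change of 0.68. Kif4, a chromatin-bound motor, had 24.5 and 15.0, a log2 change of 0.67. Nusap1, a binder of spindle microtubules, had 29.4 (9.90 to 49.0) and 19.4 (5.80 to 33.0), the smallest change of the group at 0.58 and -0.02 with Gapdh set equal.

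The genes of the central spindle and cytokinesis were all 7 higher in PID+ cells, and their median log2 change was 1.04. Ect2 (ENSMUSG00000027699.16, chromosome 3 from 27097222 to 27153878), the exchange factor that activates RhoA at the cleavage furrow, had the largest change of the group. Its FPKM was 83.0 (28.6 to 137) in PID+ cells against 33.0 (11.8 to 54.2) in PID- cells, with a log2 change of 1.31. Kif20b, a kinesin of the midzone, had 27.5 (12.0 to 43.0) and 10.8 (4.06 to 17.6), a log2 change of 1.27. Its relative Kif20a had 43.5 and 18.8, a change of 1.16. Prc1, which bundles the antiparallel microtubules on which these motors run, was the most abundant with 95.0 (23.4 to 166) and 45.7 (11.7 to 79.8), a log2 change of 1.04.

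The other genes of cytokinesis changed less. Kif23, the motor of the centralspindlin complex, had an FPKM of 58.2 in PID+ cells against 32.5 in PID- cells, with a log2 change of 0.82. Kif14, a midzone kinesin, was the scarcest gene in PID- cells with 7.93 and 4.28, a log2 change of 0.76. Anln, the scaffold anillin of the contractile ring, had 77.0 (35.4 to 119) and 50.1 (22.8 to 77.3), a log2 change of 0.61 that fell to -0.0044 with Gapdh set equal.

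The genes of anaphase onset and cyclin destruction varied most among themselves, from -0.32 to 1.20 with a median of 0.72. Espl1, which encodes separase, the protease that cleaves cohesin, had an FPKM of 13.2 (5.40 to 20.99) in PID+ cells against 5.16 (1.52 to 8.81) in PID- cells, with a log2 change of 1.20. Its inhibitor securin, encoded by Pttg1 (ENSMUSG00000020415.13, chromosome 11 from 43420250 to 43426251), was the only gene of the 48 that was lower in PID+ cells. It had 19.8 (0 to 41.7) and 24.9 (0.0628 to 49.7), a log2 change of -0.32 and a ratio of 0.794, and it was lower on every scaling used. Separase and securin thus moved in opposite directions, but both intervals of Pttg1 reach down to 0 or close to it, and they overlap.

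Ube2c, the ubiquitin-conjugating enzyme of the anaphase-promoting complex, was the most abundant of this group with an FPKM of 207 (90.9 to 323) in PID+ cells against 108 (43.0 to 174) in PID- cells, with a log2 change of 0.93. Cdc20, the activator of the same complex, had 44.0 (8.56 to 79.4) and 30.7 (1.59 to 59.8), a log2 change of 0.51 that was -0.10 with Gapdh set equal.

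Plk4, the kinase that sets centriole number, had an FPKM of 21.6 (7.93 to 35.2) in PID+ cells against 9.43 (2.32 to 16.5) in PID- cells, with a log2 change of 1.11. Top2a, the topoisomerase that untangles sister chromatids, was the most abundant of all 48 genes with 257 (30.4 to 483) and 138 (20.1 to 256), a log2 change of 0.89. Mki67, which encodes the Ki-67 protein that coats mitotic chromosomes and is used as a marker of dividing cells, had 68.9 (30.8 to 107) and 29.4 (13.5 to 45.3), a log2 change of 1.20. All 3 were higher in PID+ cells on every scaling used.

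Ordered by log2 change, the list ran from Cenpe, Foxm1, Ect2, Kif20b and Cenpf at the top to Cdca8, Cdc20, Spc24, Cenpk and Pttg1 at the bottom. Espl1 ranked 3rd with a pseudocount of 0.1 and 5th with equal Gapdh, and Cenpf ranked 6th in both cases. Over the whole list, 17 genes were at least 2-fold higher, 23 were from 1.5-fold to 2-fold higher, 7 were higher by less than 1.5-fold and Pttg1 was lower. Both ends of this order drew on several roles, and genes of the kinetochore stood at either end. Since the deposited intervals of the conditions overlapped in all 48 genes, the order itself is a description.

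Changes were similar in abundant and scarce genes. Top2a, Cdk1 and Ube2c made up 25.1% of the FPKM sum of PID+ cells and 25.6% of that of PID- cells, and without them the ratio of the sums was 1.92. The 24 more abundant genes had a median log2 change of 0.97 and the 24 less abundant genes one of 0.86.

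The genes lie on 16 chromosomes, whose own medians differed between the conditions. Among expressed genes, the median log2 change was -0.31 on chromosome 4, which carries Cdc20, Cdca8 and Kif2c, and -0.45 on the X chromosome, which carries Kif4. With the median of each chromosome subtracted, Cdc20 was at 0.82, Cdca8 at 0.83, Kif2c at 1.16 and Kif4 at 1.12. On chromosome 3, where Ccna2, Cenpe, Ect2 and Plk4 lie, the chromosome median was 0.25, and Cenpe went to 1.12 and Ect2 to 1.05. On chromosome 6 it was 0.34, and Foxm1 went to 0.99. The order of the genes thus changed: Cenpf, whose intervals reach 0, was highest at 1.24, Cenpe ranked 8th and Foxm1 14th, and the largest change of its group passed from Ccna2 to Ccnb1, from Bub1 to Ttk and from Ect2 to Kif20b. The members' median was 0.88 after this step, and Pttg1 was the only gene below 0 at -0.36. Next above it were Bub3 on chromosome 7, Spc24 on chromosome 9 and Cenpk on chromosome 13, at 0.32, 0.32 and 0.34.

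For 12 of the 48 genes, exons overlap those of another protein-coding gene in the annotation. Since the library kit does not mark strand, strand does not tell which gene a read that lies within the shared bases came from. How such reads were divided is not given in the sources used here. Kif20a shares 1271 bases with Cdc23, a subunit of the anaphase-promoting complex, whose own FPKM was 31.1 in PID+ cells against 29.1 in PID- cells. Prc1 shares 911 bases with Rccd1, whose FPKM was 8.55 and 6.77. Kif4 shares 832 bases with Pdzd11, which was above it in both conditions at 33.2 and 53.1. The smallest positive change, that of Cenpk, also comes from a gene with shared bases, 233 with Ppwd1 (8.54 and 8.31). Ccna2 shares 510 bases with Exosc9 (30.5 and 24.4), and Foxm1, Cdc25c, Cdca8, Kif18a, Nusap1, Cdc20 and Ube2c share from 11 to 623 with theirs. Of the 5 genes with the largest changes, only Foxm1 shares any.

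The depth behind each value was estimated from the steps on which low FPKM values fall. Of the low values of genes with 1 transcript, 92.2% of 550 in PID+ and 91.7% of 529 in PID- cells lay within 0.1 of a whole number of reads (or of fragments, if the reads were paired), after a length correction of 180 bases, the best of 31 tried. The length correction and the FPKM of 1 read were both chosen to make these shares largest, so the shares describe the fit and do not check it. The FPKM that 1 read adds was 1.39 times larger in PID+ than in PID- cells, a figure that joins depth and the authors' scaling. By this estimate, which takes the longest coding transcript of each gene, the fewest reads stood behind Cenpk, about 1143 in PID+ cells against 1416 in PID- cells. Counting error was thus small for each member beside the deposited intervals, which cover the error model of CuffDiff and not the spread between mice.

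Other genes of mitosis and the cell cycle, 200 in 9 lists, were examined in the same way. Closest to the 48 genes were the other genes of spindle and cytokinesis, of which all 25 were higher in PID+ cells, at a median log2 change of 0.89. The Rac1 and Cdc42 effector Iqgap3, a scaffold protein, had an FPKM of 25.4 in PID+ cells against 6.73 in PID- cells, with a log2 change of 1.77, and Depdc1b had the smallest change at 0.29, which was -0.22 with Gapdh set equal. Genes of DNA replication and S phase were higher for 31 of 33, with a median of 0.72. With Gapdh set equal, 20 of the 25 spindle genes were higher, and 23 of the 33 S phase genes with a median of 0.17, compared with 12.85% of expressed genes and their median of -0.58. The subunits of ribonucleotide reductase, the enzyme that makes deoxynucleotides, marked its ends: Rrm1 had 97.4 in PID+ cells against 31.2 in PID- cells, with a log2 change of 1.61, and Rrm2 had 149 and 231, a log2 change of -0.63.

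Smaller differences were seen in the other structural genes of mitosis. Of 19 genes of the centrosome and gamma-tubulin, 16 were higher in PID+ cells, at a median log2 change of 0.61. For expressed genes these figures were 49.9% and -0.0012. The centrosomal kinase Nek2 led them with an FPKM of 45.2 and 18.3 (1.26), and Haus7, an augmin subunit, had the largest change the other way with 26.4 and 41.1 (-0.62). Of 23 condensin and cohesin genes, 20 were higher with a median of 0.57. Esco2, which acetylates cohesin in S phase, had 16.7 and 5.07 (1.55). The cohesin subunit Stag2 had 46.0 and 56.2 (-0.28), which turned to 0.17 when the median of its chromosome was subtracted. With Gapdh set equal, 9 of the 23 condensin and cohesin genes were higher with a median of -0.04, and 10 of the 19 centrosome genes with a median of 0.01, again compared with 12.85% and -0.58 for expressed genes.

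The other genes of centromere and kinetochore were higher in PID+ cells for 33 of 35, at a median log2 change of 0.45, less than that of the 8 kinetochore genes above. Of expressed genes, 49.9% were higher, with a median of -0.0012. Spdl1, an adaptor for dynein at kinetochores, had an FPKM of 18.8 in PID+ cells against 7.59 in PID- cells (1.21), and Cenpb, which binds a motif in centromeric repeats, had 27.4 and 46.4 (-0.74). Of 17 other regulators of mitotic entry and exit, 16 were higher with a median of 0.55. Ccnf, which encodes cyclin F, had 23.8 and 10.05 (1.17), and Ensa, an inhibitor of the phosphatase PP2A, had 20.3 and 20.6 (-0.03). With Gapdh set equal, 15 of the 35 and 8 of the 17 were higher, and the medians of these lists were -0.08 and -0.06, where 12.85% of expressed genes were higher with a median of -0.58.

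The upstream regulators and the anaphase-promoting complex were less uniform in direction. Of 17 genes of the complex and its partners, with Fzr1, Ube2s and Fbxo5 among them, 9 were higher and 8 lower in PID+ cells. These counts lay near the share among expressed genes, of which 49.9% were higher and 50.1% lower. The median log2 change of the 17 genes, 0.03, turned to -0.06 with equal total FPKM (6 higher, 11 lower) and -0.54 with equal Gapdh (1 higher). With equal total FPKM, 58.42% of expressed genes were lower. Anapc15 had an FPKM of 14.3 and 7.37 (0.87), and Anapc16 had 21.7 and 36.8 (-0.74). Of 18 genes of the E2F, DREAM and MuvB regulators of cell cycle genes, 14 were higher with a median of 0.28, from E2f3 at 14.04 and 22.6 (-0.65) to E2f7 at 14.4 and 5.33 (1.28). Of 13 genes of p53 and the Cdk inhibitors, 7 were higher and 6 lower with a median of 0.11, from the inhibitor Cdkn2b at 9.74 and 31.4 (-1.59) to Mdm2, the ligase that degrades p53, at 161 and 75.5 (1.08). The counts of this p53 list also lay near the share among expressed genes. With Gapdh set equal, 3 of the 18 and 3 of the 13 were higher, and the medians of these last lists were -0.24 and -0.42. On that scale 12.85% of expressed genes were higher and their median was -0.58. With chromosome medians subtracted, the median of the p53 list was -0.10.

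**Figure D2:**
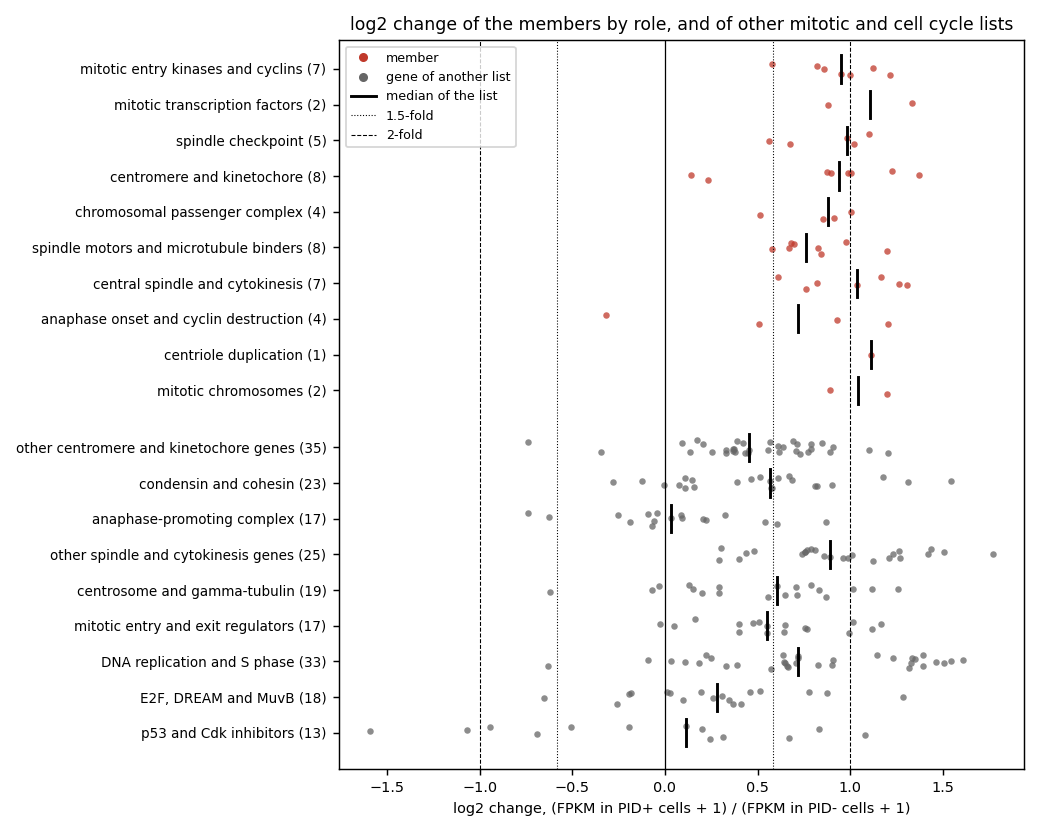
log2 change between PID+ and PID- cells for the 48 mitotic genes by role (red) and for 200 other genes in 9 lists (grey), with the number of genes in brackets. Each point is a gene, black bars are medians, dotted lines mark 1.5-fold and dashed lines 2-fold, and the vertical scatter within a row is for display. The medians of the roles lie between 0.72 and 1.11, and those of the other lists between 0.03 and 0.89, while with Gapdh set equal 6 of the 9 other medians would lie below 0, as would that of expressed genes (-0.58).

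Since the genes moved together, their promoters were searched for the letters of motifs known from mitotic promoters. The cell cycle homology region (CHR, TTTGAA or TTCGAA) is bound by the MuvB complex, and CCAAT boxes are bound by NF-Y. Promoters of 40 of the 48 genes matched the RefSeq table (GRCm38.p6), with 45 starts in all, and Ccna2, Cdc25c, Foxm1, Spc24, Aurkb, Incenp, Tpx2 and Kif20a had no entry. From 250 bases before to 50 after the start and on both strands, a CHR was found in 71.1% of the 45 promoters, compared with 19.2% of all 32851 promoters of the table and 13.7% of those of expressed genes. A CCAAT was found in 71.1%, compared with 37.4% and 37.3%, and both motifs together in 60%, compared with 7.52% and 5.75%. Where they adjoin, a CHR and a CCAAT can share a base. A match is a description of the letters and not of binding.

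The lists around them differed in this respect. A CHR was found in 69.6% of the promoters of the other spindle and cytokinesis genes, whose changes were closest to the 48. It was found in 50% for condensin and cohesin, 42.4% for the other kinetochore genes, 40% for entry and exit regulators, 36.8% for the E2F, DREAM and MuvB list, 21.1% for the anaphase-promoting complex, 15.6% for the S phase genes, 13.3% for the centrosome and 6.25% for the p53 list. The S phase genes, next in median log2 change (0.72), had a CHR less often than all promoters of the table (19.2%). Each of these shares rests on 15 to 33 promoters. The lists differed less in CCAAT. It was in 69.6% of the promoters of the other spindle and cytokinesis genes and 68.75% of those of the p53 list. For entry and exit regulators it was 66.7%, for S phase 62.5%, for the other kinetochore genes 57.6% and for the centrosome 53.3%. Condensin and cohesin had 50%, the E2F, DREAM and MuvB list 47.4% and the anaphase-promoting complex 42.1%. Among the 40 genes with a promoter in the table, medians with and without the motif were alike. The 29 genes with a CHR had a median log2 change of 0.89 and the 11 without it 0.90. The 24 genes with both motifs had a median of 0.94 and the 16 others 0.88. Neither motif was found in 8 genes, Birc5, Kif18a, Mad2l1, Mybl2, Nuf2, Nusap1, Plk4 and Pttg1.

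The 200 bases before the start are shown for the 5 genes in which this window held both motifs and no annotated exon. Plk4, the gene with the largest change among those with neither motif, is shown for contrast. With chromosome medians subtracted, Nuf2 (0.91) and Birc5 (0.87) lay above Plk4 (0.86). Capitals mark CHR and CCAAT on either strand, where CCAAT reads ATTGG and TTTGAA reads TTCAAA on the reverse strand. Ccnb2 lies upstream of its start at chr9:70421555-70421754 on the minus strand, Bub1b at chr2:118598011-118598210 on the plus strand, Kif11 at chr19:37376182-37376381 on the plus strand, Top2a at chr11:99024190-99024389 on the minus strand, Mki67 at chr7:135716380-135716579 on the minus strand and Plk4 at chr3:40799751-40799950 on the plus strand, all from RefSeq on GRCm38.p6 and written 5′ to 3′ along the gene.
Ccnb2: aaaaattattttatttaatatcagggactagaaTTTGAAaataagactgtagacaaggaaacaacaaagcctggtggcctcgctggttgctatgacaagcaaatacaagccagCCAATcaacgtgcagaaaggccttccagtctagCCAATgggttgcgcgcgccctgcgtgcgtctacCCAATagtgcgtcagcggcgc
Bub1b: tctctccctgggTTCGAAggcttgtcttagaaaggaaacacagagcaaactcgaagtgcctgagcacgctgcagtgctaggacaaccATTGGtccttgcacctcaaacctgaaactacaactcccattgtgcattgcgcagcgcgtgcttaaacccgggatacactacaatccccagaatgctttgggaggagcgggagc
Kif11: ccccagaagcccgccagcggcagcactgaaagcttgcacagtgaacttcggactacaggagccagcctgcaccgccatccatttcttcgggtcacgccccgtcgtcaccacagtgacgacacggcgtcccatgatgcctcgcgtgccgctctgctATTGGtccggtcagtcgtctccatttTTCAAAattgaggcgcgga
Top2a: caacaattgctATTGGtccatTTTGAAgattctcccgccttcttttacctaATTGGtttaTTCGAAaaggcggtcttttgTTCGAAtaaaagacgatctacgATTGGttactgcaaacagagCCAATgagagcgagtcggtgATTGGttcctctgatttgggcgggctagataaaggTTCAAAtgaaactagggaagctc
Mki67: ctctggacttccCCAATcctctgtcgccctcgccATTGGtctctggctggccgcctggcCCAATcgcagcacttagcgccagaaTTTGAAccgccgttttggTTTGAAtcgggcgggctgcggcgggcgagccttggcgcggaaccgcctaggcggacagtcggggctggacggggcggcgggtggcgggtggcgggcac
Plk4: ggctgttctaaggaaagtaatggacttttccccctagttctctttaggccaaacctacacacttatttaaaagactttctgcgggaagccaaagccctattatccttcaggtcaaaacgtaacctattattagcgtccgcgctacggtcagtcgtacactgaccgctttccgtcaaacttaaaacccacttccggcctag
Top2a, the most abundant of the 48 genes, held 4 CHR and 5 CCAAT in this window, and Mki67 held 2 and 3. In Kif11 the CHR began 19 bases and the CCAAT 45 bases before the start, while in Bub1b they began 188 and 113 bases before it. The log2 changes of these genes were 0.58 for Ccnb2, which was -0.04 with Gapdh set equal, 0.67 for Bub1b, 0.82 for Kif11, 0.89 for Top2a and 1.20 for Mki67. Plk4, with no motif, changed by 1.11.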

How the data were processed

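RNA was poly-A selected, made into libraries with the Illumina TruSeq RNA V2 kit and sequenced as 50 base reads. The study's methods call them paired end, which the labels do not state. The authors trimmed adapters (CutAdapt), aligned to GRCm38.p3 with protein coding gene models (TopHat), pooled the 3 read sets of a condition, and deposited the FPKM from CuffDiff, normalized to compatible hits. How CuffDiff scaled the libraries and which annotation release was used are not given in the sources used here. The deposited interval bounds, in FPKM, are other CuffDiff output, as is a standard deviation that was not used.

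Of 21966 genes with a row per condition (43932 rows), 7 with a status other than OK were left out. In 28 rows the FPKM lay outside its own interval, none of them of the 48 genes. Positions and exon overlaps came from Gencode M21 (GRCm38). Fold changes used a pseudocount of 1. The members, the 10 role groups, the 9 other lists and the 4 marker lists were chosen with earlier results of these data known. Full values are given for the largest and smallest change and the most abundant gene of each role group and for the 5 genes at each end of the list, shorter values for the other members, and from each other list the largest change each way among expressed genes (mean FPKM 5 or more). The 6 alternatives were equal Gapdh FPKM, equal total FPKM, equal upper quartiles, 0.1 as pseudocount, expressed genes alone, and the subtraction of each chromosome's median. The calculations were tested on simulated data. Python 3.11.15, numpy 2.4.6, pandas 2.3.3 and matplotlib 3.10.9 were used.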

Additional observations from a re-analysis of the deposited data

How the results depend on the processing

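With equal Gapdh FPKM, the 48 genes had a median log2 change of 0.29, 9 were lower in PID+ cells, 9 were at least 1.5-fold higher, 1 at least 1.5-fold lower and 0 at least 2-fold higher, and the ratio of summed FPKM was 1.23. On that scale, 61.56% of all genes and 87.14% of expressed genes were lower, 2.732% and 3.597% at least 1.5-fold higher, 26.47% and 49.91% at least 1.5-fold lower, and 1.179% and 1.574% at least 2-fold higher. The FPKM of PID+ cells lay above the upper bound of PID- cells for 1 of the 48 genes in place of 34, compared with 6.763% and 1.906%. Medians by role were then 0.34 for mitotic entry, 0.50 for transcription factors, 0.37 for the checkpoint, 0.34 for centromere and kinetochore, 0.27 for the chromosomal passenger complex, 0.17 for motors, 0.42 for cytokinesis, 0.10 for anaphase, 0.52 for Plk4 and 0.43 for mitotic chromosomes. All medians of the other lists fell. Those that moved by more than 1.5 times, compared as folds, were -0.0384 for condensin and cohesin and 0.30 for other spindle genes. The same held for the centrosome at 0.0117 and for entry and exit regulators at -0.0608. The rest moved by less. They were -0.08 for other centromere and kinetochore genes, -0.54 for the anaphase-promoting complex and 0.17 for S phase. For E2F, DREAM and MuvB the median was -0.24, and for p53 and Cdk inhibitors -0.42. The scalings of the intervals and of the marker sums were chosen after the data were seen. So were the measure of the upper bound and the counts of higher genes in the other lists, with their scalings. Those counts moved to 15 of 35 for centromere and kinetochore, 9 of 23 for condensin and cohesin, 1 of 17 for the anaphase-promoting complex, 10 of 19 for the centrosome, 8 of 17 for entry and exit regulators, 3 of 18 for E2F, DREAM and MuvB, and 3 of 13 for p53 and Cdk inhibitors. Anln changed sign to -0.0044, and Bub3, Ccnb2, Cdc20, Cdca8, Cenpk, Nusap1, Spc24 and Depdc1b changed sign too. This follows from the scaling, which multiplies every FPKM of PID+ cells by 0.648. The alternative of expressed genes alone could not change the values of the 48 genes, since all 48 are expressed genes, so it is no check on them. Under the other 5 alternatives, the counts of the 48 genes that were higher, lower or past a fold, the medians of the 48 and of their roles and the log2 changes of the 66 named genes stayed within 1.5 times of the values reported, with log2 values compared as folds. So did the medians of the other lists and their counts of higher genes, but the median of the anaphase-promoting complex changed sign with equal total FPKM (-0.06, with 6 of 17 genes higher, compared with 9), and the median of the p53 list (-0.10) and the change of Stag2 (0.17) did so with chromosome medians subtracted. Intervals and bounds were tested under the 3 scalings alone: intervals overlapped in all 48 genes under each, and the count of 34 was 27 with equal total FPKM and 35 with equal upper quartiles. The summed FPKM, also run on scalings alone, had no change over 1.5 times on these last 2. Chromosome medians also changed which gene had the largest change, from Cenpe to Cenpf, and which of the passenger complex had the smallest, from Cdca8 to Incenp, and a pseudocount of 0.1 put Kif20b above Ect2.

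No paired analysis was possible because the labels share no replicate numbers across the groups and the table holds pooled values. Leaving out a replicate could not be run, since the table holds 1 pooled value per condition. Depth per sample is unknown, and the deposited intervals do not cover the spread between mice. Which of the scalings is right for these cells was not tested.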
